A study of Mus musculus with 6 samples.

Results

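The genes examined here carry peptides to the surface of tumor cells on MHC class I molecules. They were taken as a named list of 10 genes out of the 55536 counted: the heavy chains H2-K1 and H2-D1, the light chain B2m, the peptide transporter subunits Tap1 and Tap2, the loading factor Tapbp, the immunoproteasome subunits Psmb8, Psmb9 and Psmb10, and the transcriptional regulator Nlrc5. All 10 were among the 15374 genes kept after low counts were filtered out. RNA was sequenced from orthotopic tumors of HCA-1, a murine hepatocellular carcinoma cell line, which had been implanted under the liver capsule of male C3H mice (C3H/HeNCrNarl in the study's methods) aged 6 to 8 weeks. The control group (Control 5, 6 and 7) was untreated. The treated group (GOX_DOX 1, 2 and 5) received intravenous nanoparticles carrying glucose oxidase (GOx) and doxorubicin (DOX), which the study made from lipid, gelatin and protamine. The labels place the doses on days 18, 19 and 20 but the analysis on day 17 after 3 h of circulation, so the time between the last dose and sampling cannot be read from them. For tumors used in quantitative PCR, the study's methods give the same dosing days and a harvest on the day after the last dose. The methods do not state whether this also holds for the sequenced tumors. The comparison asks how the tumor transcriptome differs with treatment. Nothing in the labels says that each library came from a separate mouse, so p-values measure the spread between these samples.

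Class I molecules display peptides from proteins made inside the cell to CD8 T cells. Proteins are cut by the proteasome, whose constitutive catalytic subunits (Psmb5, Psmb6, Psmb7) can be replaced by the interferon-inducible immunosubunits Psmb8, Psmb9 and Psmb10. The peptides are pumped into the endoplasmic reticulum by Tap1 and Tap2, and tapasin (Tapbp) holds the empty heavy chain and B2m beside the pump until a peptide binds. Interferon gamma, in part through Irf1, and the regulator Nlrc5 are known to switch on many of these genes, in tumor cells and in leukocytes alike.

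Of the members, 7 lie on chromosome 17 in the mouse H2 region. In GENCODE M21 (GRCm38), H2-K1 (ENSMUSG00000061232) spans chr17:33996017-34000347 on the minus strand and H2-D1 (ENSMUSG00000073411) spans chr17:35262730-35267499 on the plus strand. Tap1 (ENSMUSG00000037321, chr17:34187553-34197225), Psmb8 (ENSMUSG00000024338, chr17:34197721-34201454) and Tap2 (ENSMUSG00000024339, chr17:34203527-34216321) follow one another on the plus strand. Psmb9 (ENSMUSG00000096727, chr17:34181987-34187764) lies next to Tap1 on the minus strand, and the exons of the 2 genes share 212 bases on opposite strands. Tapbp (ENSMUSG00000024308) spans chr17:33915899-33929292. B2m (ENSMUSG00000060802) lies at chr2:122147686-122153083, Psmb10 (ENSMUSG00000031897) at chr8:105935735-105938444 and Nlrc5 (ENSMUSG00000074151) at chr8:94434356-94527272.

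The upstream sequence of the heavy chain and light chain genes is shown because class I promoters are known for a shared block of elements, an enhancer bound by NF-kappaB and interferon regulatory factors and an SXY module read by the Nlrc5 assembly. The stretches are RefSeq sequence of GRCm38.p6, written 5′ to 3′ on the gene's strand, with matches to 4 motifs in capitals: the kappaB motif (GGG and TCCC separated by 3 bases), AANNGAAA (the core bound by interferon regulatory factors, IRF), TGACG (the X2 core) and CCAAT. All letters and differences given are those of this reference genome. C3H mice carry other H2 alleles than the reference, and their upstream letters were not examined. Both strands were searched, so TTTCACTT and ATTGG are matches to the IRF and CCAAT motifs on the other strand. The 250 bases before the start of H2-K1 (chr17:34000348-34000597) and the 249 bases before B2m (chr2:122147437-122147685) are:
H2-K1: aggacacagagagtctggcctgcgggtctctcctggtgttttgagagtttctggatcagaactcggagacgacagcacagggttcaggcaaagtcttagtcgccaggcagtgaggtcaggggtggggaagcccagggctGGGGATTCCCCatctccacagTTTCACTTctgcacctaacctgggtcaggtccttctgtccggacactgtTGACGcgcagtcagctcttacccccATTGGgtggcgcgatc
B2m: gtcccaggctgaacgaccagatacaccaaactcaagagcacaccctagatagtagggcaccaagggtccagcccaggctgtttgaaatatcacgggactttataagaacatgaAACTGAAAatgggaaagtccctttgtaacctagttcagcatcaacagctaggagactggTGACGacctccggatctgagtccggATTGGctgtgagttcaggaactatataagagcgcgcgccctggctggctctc

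The run of letters from the kappaB motif to the IRF core differed between H2-K1 (chr17:34000430-34000458) and H2-D1 (chr17:35262923-35262951) at 1 of 29 positions:
H2-K1: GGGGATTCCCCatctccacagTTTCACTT
H2-D1: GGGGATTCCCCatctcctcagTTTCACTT

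The X2 core was also found upstream of H2-D1 (chr17:35262981-35263009) and in the gap between the Tap1 and Psmb9 starts (chr17:34187458-34187486, given on the Tap1 strand), here with 12 bases on each side:
H2-D1: ccgggacactgaTGACGcgctggcaggtc
Tap1: cccagagacaggTGACGacagagggtcct

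Promoter entries existed for 8 of the 10 members, with none for Tap2 and Nlrc5. H2-K1 and H2-D1 held all 4 motifs within 250 bases, B2m held the IRF, X2 and CCAAT motifs, and Tap1 and Psmb9, whose RefSeq starts lie 225 bases apart, held X2 and CCAAT. Tapbp held CCAAT, and no match to any of the 4 lay in the windows of Psmb8 and Psmb10. Among all 32851 windows of the same length, 21.3% held AANNGAAA, 17.8% TGACG, 33.9% CCAAT and 4.77% the kappaB motif, and 0.0639% held all 4. A match is a description of letters in the reference genome and not a measured binding site.

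Library totals lay between 15529940 and 18401178 counts, and levels are given as CPM, counts scaled to library size with TMM factors. These factors were 1.24, 0.759 and 0.569 in Controls 5, 6 and 7 and between 1.21 and 1.24 in the treated libraries. The order and spacing of the libraries in CPM depend on them. Before the members are described, the makeup of the controls must be given, since Controls 6 and 7 stood apart from Control 5. The summed level of 12 hepatocyte markers was 659.3 CPM in Control 5 against 134464 CPM in Control 6 and 219183 CPM in Control 7, and it was 3549, 1446 and 1955 CPM in GOX_DOX 1, 2 and 5. Alb (albumin) followed the same order, with 352.7, 73804 and 128244 CPM in Controls 5, 6 and 7 and from 733.1 to 1893 CPM in the treated libraries. The 8 markers of proliferating tumor cells summed to 1867, 1007 and 695.4 CPM in Controls 5, 6 and 7 and to 1863, 1675 and 2007 CPM in the treated libraries. Control 5 thus lay beside the treated libraries in both lists, while the other two controls held more hepatocyte and less tumor marker RNA. Each result on the members is given with the value of every control for this reason. In bulk tumor RNA, fewer cells of a type and less RNA per cell cannot be told apart.

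All 10 members had a higher mean level in the treated libraries, with a median log2 fold change of 0.78 (range 0.23 to 1.18) against a median of 0.02 over all genes kept. None passed the test. In the edgeR quasi-likelihood fit over all 6 libraries, adjusted after Benjamini-Hochberg, 0 of 10 members had an adjusted p under 0.05 (percent called over all genes, 0%), and the smallest adjusted p among all genes was 0.247. At an unadjusted p under 0.05 stood 4 members, Tap2, Tapbp, Psmb8 and Psmb10, all higher, where 2.87% of all genes were higher and 14.6% lower at that level. DESeq2 called 1 member, Tapbp, where it called 9.48% of all genes, 0.57% as higher. In 7 of 10 members, all but B2m, Tap1 and Nlrc5, every treated library lay above every control, which held for 8.87% of all genes, and no member lay below every control (8.31% of all genes). The voom fit of limma with sample quality weights called 9 members, all but B2m, but also 60.2% of all genes, 29.2% as higher.

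**Figure D1:**
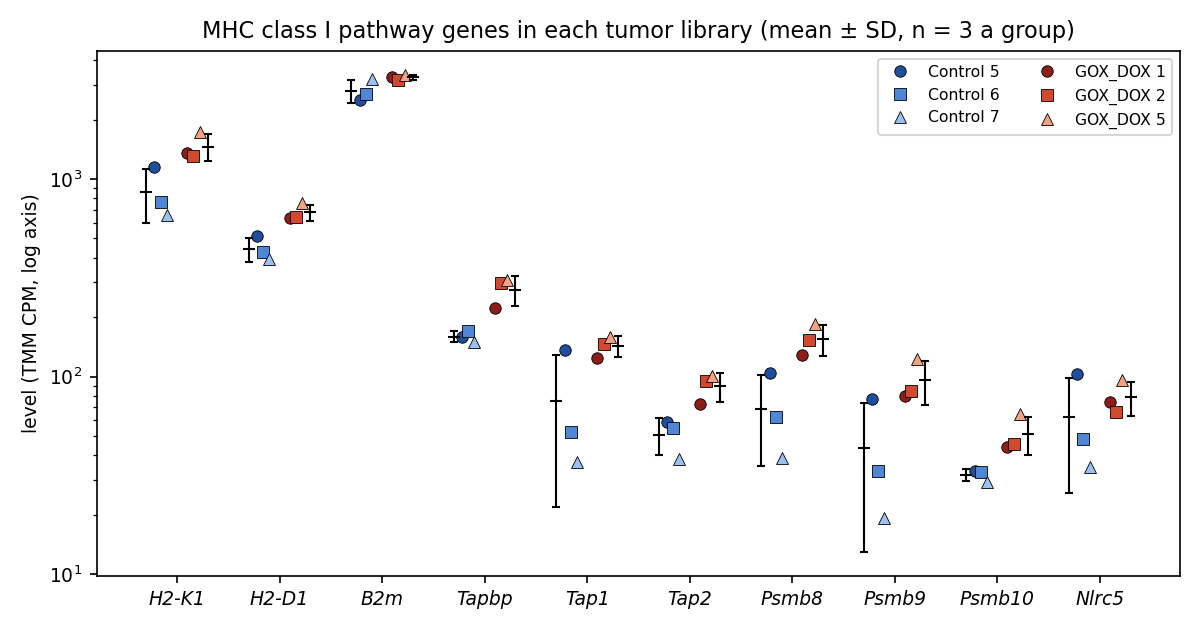
Level of each member in each of the 6 tumor libraries, as TMM-scaled CPM on a log axis, with bars for the mean ± SD of the 3 libraries of a group. Blue symbols are controls and red symbols treated libraries. Control 5 (dark blue circle) lies among or near the treated libraries for Tap1, Psmb9 and Nlrc5 and beside the other controls for Tapbp and Psmb10.

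The heavy chains present the peptide and are recognized by T cells. H2-K1 stood at 1152, 767.5 and 660.6 CPM in Controls 5, 6 and 7, a mean of 860.1 ± 258.5 (SD, n = 3). In GOX_DOX 1, 2 and 5 it stood at 1355, 1302 and 1723 CPM, a mean of 1460 ± 229.2 (SD, n = 3). Every treated library lay above the highest control, Control 5, although the gap to it was narrower than that to the other controls. The log2 fold change was 0.76 ± 0.40 (SE, edgeR adjusted p = 0.360).

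H2-D1, the second classical heavy chain, stood at 511.8, 424.9 and 391.6 CPM in the controls (442.8 ± 62.1, SD, n = 3). In the treated libraries it stood at 638.1, 640.5 and 752.1 CPM (676.9 ± 65.1, SD, n = 3). The groups did not overlap, and the 3 controls lay closer together than for H2-K1. Its fitted log2 fold change was 0.61 ± 0.30 (SE, edgeR adjusted p = 0.336). Of the stretches of 50 bases in the H2-K1 transcripts, 9.63% also occur in another gene, most often H2-Q10 (5.18%), and for H2-D1 the share is 12.8%, most often H2-Q1 (5.87%), so reads from these stretches could be dropped or assigned to another gene by the authors' counting. C3H mice carry other H2 alleles than the C57BL/6 reference, and the effect of this on the heavy chain counts was not tested.

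The share of H2-K1 in the sum of both heavy chains depends on no scaling between libraries. It was 69.2%, 64.4% and 62.8% in the controls and 68.0%, 67.0% and 69.6% in the treated libraries, with 95% Wilson intervals of counting error from 61.8-63.7% in Control 7 to 69.2-70.0% in GOX_DOX 5. Control 5 lay within the treated range, and the other two controls below it. The group means were 65.5 ± 3.36% and 68.2 ± 1.31% (SD, n = 3 each), a difference of 2.75 points (two-sided exact permutation test, p = 0.3, where 3 against 3 libraries cannot go below 0.1).

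B2m, the light chain that every class I heavy chain needs, stood at 2504, 2691 and 3205 CPM in the controls (2800 ± 362.7, SD, n = 3). In the treated libraries it stood at 3290, 3168 and 3368 CPM (3276 ± 100.8, SD, n = 3). On this TMM scale Control 7 lay within the treated range and Control 5 was the lowest of all libraries, unlike for the heavy chains. The raw B2m counts were 57074, 31738 and 29779 in Controls 5, 6 and 7. The log2 fold change of 0.23 ± 0.46 (SE, edgeR adjusted p = 0.779) was the smallest of the members. With library totals alone it was 0.79, above that of Nlrc5 (0.66). The ratio of B2m counts to those of both heavy chains, chosen after the values were seen, ranged from 1.36 in GOX_DOX 5 to 3.05 in Control 7, with Control 5 (1.505) inside the treated range.

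The peptide pump and its bridge to the heavy chain come next. Tap1 stood at 136.0, 52.5 and 37.0 CPM in the controls (75.2 ± 53.2, SD, n = 3), and at 124.3, 146.5 and 158.2 CPM in the treated libraries (143.0 ± 17.2, SD, n = 3). Control 5 lay above GOX_DOX 1 and was 3.04 times the mean of the other two controls. This gave a log2 fold change of 0.93 ± 0.51 (SE, edgeR adjusted p = 0.371), and it was 0.09 against Control 5 alone.

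Tap2, the partner of Tap1 in the transporter, stood at 58.9, 54.7 and 38.4 CPM in the controls and at 72.7, 95.2 and 100.2 CPM in the treated libraries. The groups did not overlap, and Control 5 lay 1.27 times above the mean of the other controls, much less than for Tap1. Its log2 fold change was 0.82 ± 0.25 (SE, unadjusted p = 0.0173, edgeR adjusted p = 0.247). Of the Tap2 exon bases, 14.1% overlap the opposite-strand gene Gm15821 and 4.36% Gm20496, with the strand setting of the counting not given.

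Tapbp stood at 158.4, 169.8 and 149.9 CPM in the controls (159.4 ± 9.97, SD, n = 3), and at 221.3, 299.1 and 306.7 CPM in the treated libraries (275.7 ± 47.3, SD, n = 3). The groups did not overlap and the controls lay close together on the TMM scale, with Control 5 at 0.991 times the mean of the other controls. The raw Tapbp counts were 3611, 2002 and 1393 in Controls 5, 6 and 7. The fit gave a log2 fold change of 0.79 ± 0.25 (SE, unadjusted p = 0.0191, edgeR adjusted p = 0.247), and DESeq2 gave 0.81 ± 0.23 with an adjusted p of 0.0102. Of the Tapbp exon bases, 24.9% overlap the opposite-strand gene Gm19412, and the strand setting of the counting is not given in the sources used here.

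Among the immunosubunits, Psmb8 (LMP7, the counterpart of Psmb5) had the largest fold change of the members. It stood at 104.2, 62.4 and 38.6 CPM in the controls (68.4 ± 33.2, SD, n = 3), and at 127.9, 152.9 and 183.6 CPM in the treated libraries (154.8 ± 27.9, SD, n = 3). Every treated library lay above Control 5, itself 2.06 times the mean of the other controls. The log2 fold change was 1.18 ± 0.40 (SE, unadjusted p = 0.0254, edgeR adjusted p = 0.247). Of the Psmb8 exon bases, 14.7% overlap the opposite-strand gene Gm20496, with the strand setting of the counting not given.

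Psmb9 (LMP2, the counterpart of Psmb6) stood at 77.4, 33.4 and 19.1 CPM in the controls, and at 79.3, 84.3 and 123.4 CPM in the treated libraries. Its groups were separated by less than 2 CPM between Control 5 and GOX_DOX 1. Its fitted log2 fold change was 1.14 ± 0.53 (SE, edgeR adjusted p = 0.325). The count ratio of Tap1 to Psmb9, chosen after the values were seen, lay between 1.28 and 1.93 in the 6 libraries, a 1.51-fold range. The log2 CPM of Tap1 ranged over 2.09 and that of Psmb9 over 2.68. This ratio was not set against those of other member pairs, and whether the neighbouring starts play a part was not tested.

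Psmb10 (MECL-1, the counterpart of Psmb7) stood at 33.3, 32.9 and 29.2 CPM in the controls (31.8 ± 2.27, SD, n = 3), and at 43.7, 45.8 and 64.3 CPM in the treated libraries (51.2 ± 11.3, SD, n = 3). As with Tapbp, the 3 controls were close together on the TMM scale and the groups did not overlap. This gave a log2 fold change of 0.69 ± 0.22 (SE, unadjusted p = 0.0202, edgeR adjusted p = 0.247).

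Nlrc5, the class I transactivator, stood at 103.5, 48.2 and 34.6 CPM in the controls (62.1 ± 36.5, SD, n = 3), and at 74.7, 66.0 and 95.9 CPM in the treated libraries (78.9 ± 15.4, SD, n = 3). Control 5 was the highest of the 6 libraries. The log2 fold change of 0.34 ± 0.44 (SE, edgeR adjusted p = 0.654) turned to -0.38 against Control 5 alone.

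In the edgeR fit, the calls for most members changed when Control 5 was left out. Without it, the quasi-likelihood test called 9 of 10 members, all but B2m (0.18, edgeR adjusted p = 0.651), while it called 47.7% of all genes, 22.2% as higher. The fold changes without it were largest for Psmb9 (1.89, edgeR adjusted p = 0.00304), Tap1 (1.71, edgeR adjusted p = 0.00112) and Psmb8 (1.64, edgeR adjusted p = 0.00306), for which Control 5 was 2.94, 3.04 and 2.06 times the mean of the other controls. With Control 5 as the only control, the smallest edgeR adjusted p of any member was 0.885, and the median log2 fold change of the members was 0.41, where the lone control was assumed to vary like the treated libraries. Tapbp was 0.81, Psmb10 0.64 and Tap2 0.61 against Control 5 alone. Tapbp (0.82, edgeR adjusted p = 0.0246) and Psmb10 (0.75, edgeR adjusted p = 0.0297) were also called without Control 5. For these genes Control 5 was 0.991 and 1.07 times the mean of the other controls.

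**Figure D2:**
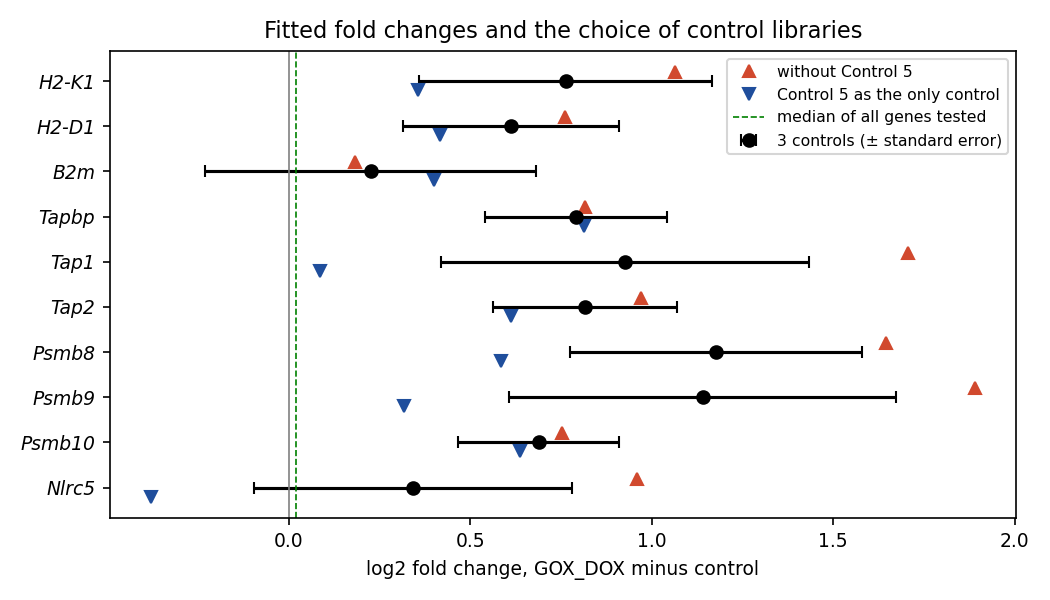
Log2 fold change (GOX_DOX minus control) of each member from edgeR, with all 3 controls (black points, bars ± SE), without Control 5 (red triangles) and with Control 5 as the only control (blue triangles). The dashed line is the median of all genes tested, 0.02. The values for Tap1, Psmb9 and Nlrc5 depend most on the controls chosen, and those for Tapbp and Psmb10 least.

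Levels between genes were compared per length, as RPKM from TMM-scaled CPM and GENCODE M21 exon lengths. The length was the union of all annotated exons of a gene, which can exceed that of the transcript expressed. It was 3381 bases for Psmb8, 3660 for Psmb9 and 860 for B2m. The order between genes therefore depends on the annotation, and the size of this effect was not tested. In the controls the order was B2m (3256 ± 421.8), H2-K1 (292.7 ± 88.0), H2-D1 (171.7 ± 24.1) and Tapbp (43.9 ± 2.75 RPKM, SD, n = 3 each), each separate from the next. Below these lay Psmb8, Psmb10, Tap1, Tap2, Psmb9 and Nlrc5, between 20.2 and 7.31 RPKM, and neighbours among these did not differ beyond their spread. In the treated libraries the same 4 genes led, B2m at 3809 ± 117.2, H2-K1 at 497.0 ± 78.0, H2-D1 at 262.5 ± 25.3 and Tapbp at 76.0 ± 13.0 RPKM, followed by Psmb8 at 45.8 ± 8.26 RPKM. Psmb10, Psmb9, Tap1 and Tap2 (30.1 to 23.6 RPKM) overlapped with their neighbours, and Nlrc5 (9.29 ± 1.81 RPKM) was separate below them.

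Immunosubunits were also set against the constitutive subunits they replace, as a ratio of raw counts within each library. Psmb8 to Psmb5 was 5.17, 1.98 and 0.945 in the controls and 5.30, 7.78 and 6.48 in the treated libraries, a difference of mean log2 ratios of 1.60 (two-sided exact permutation test, p = 0.1, adjusted 0.133 over 4 ratios). Psmb9 to Psmb6 was 1.38, 0.308 and 0.157 in the controls and 1.21, 1.46 and 1.57 in the treated libraries, a difference of 1.79 (exact permutation p = 0.2, adjusted 0.2). Psmb10 to Psmb7 was 0.776, 0.553 and 0.403 in the controls and 1.03, 1.27 and 1.41 in the treated libraries, a difference of 1.14 (exact permutation p = 0.1, adjusted 0.133). The treated ratio lay above every control for Psmb8 and Psmb10, whereas for Psmb9 Control 5 lay above GOX_DOX 1. The difference from Control 5 alone was 0.32, 0.03 and 0.66 on the log2 scale for the Psmb8, Psmb9 and Psmb10 ratios. For the sums of the 3 subunits the ratio was 1.80, 0.645 and 0.370 in the controls and 1.90, 2.49 and 2.44 in the treated libraries, and p = 0.1 is the smallest that the exact permutation test of 3 against 3 libraries can give. Of the 50-base stretches of Psmb5, 54.1% also occur in another gene, mostly the pseudogene Gm3375 (46.8%), so the level of its ratio is uncertain.

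**Figure D3:**
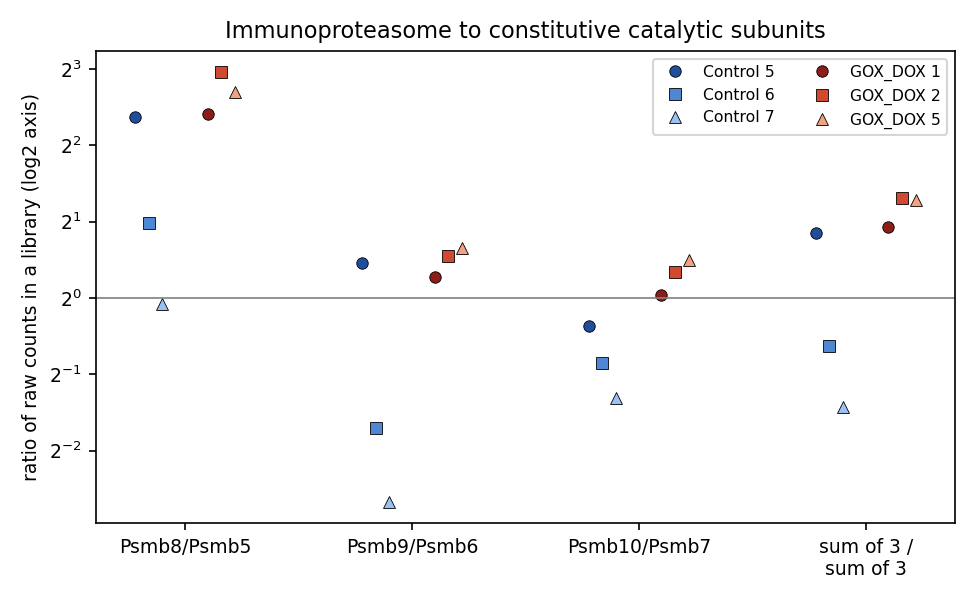
Ratio of raw counts of each immunosubunit to the constitutive subunit it replaces in each of the 6 libraries, on a log2 axis, and the ratio of the sums of the 3 subunits. Control 5 lies near the treated libraries for Psmb8 to Psmb5 and Psmb9 to Psmb6, while Controls 6 and 7 lie lower.

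The constitutive subunits themselves had lower means in the treated libraries, though none passed the test. Psmb5 was 30.9 ± 10.4 CPM in the controls and 24.04 ± 4.36 in the treated libraries (log2 fold change -0.36 ± 0.31, edgeR adjusted p = 0.534), with overlapping groups. Psmb6 (-0.51 ± 0.34, edgeR adjusted p = 0.439) and Psmb7 (-0.49 ± 0.25, edgeR adjusted p = 0.350) overlapped as well, with Control 5 near or among the treated libraries in each. The proteasome activator subunits, which open the proteasome gate, gave 0.22 ± 0.28 for Psme1 (edgeR adjusted p = 0.649) and 0.52 ± 0.26 for Psme2 (edgeR adjusted p = 0.348). The whole list of activator and assembly factors had 0 of 8 genes whose groups did not overlap and a median log2 fold change of 0.05.

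A further list held chaperones, peptide trimming enzymes and the channel subunits Sec61a1 and Sec61b. Of its genes, 0 of 10 were called by edgeR or DESeq2 and none had groups that did not overlap. Calr (-0.51 ± 0.43), Canx (0.02 ± 0.33), Pdia3 (0.21 ± 0.34) and the trimming enzyme Erap1 (-0.51 ± 0.30) had adjusted p from 0.394 to 0.975. Their list median was -0.03.

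Regulators of the pathway followed a mixed course. Irf1, an activator of class I genes, had Control 5 highest of all (235.1 CPM) and a log2 fold change of 0.63 ± 0.53 (edgeR adjusted p = 0.526). Ciita, the class II transactivator and relative of Nlrc5, likewise had its highest level in Control 5 (71.0 CPM), with a log2 fold change of 0.33 ± 0.70 (edgeR adjusted p = 0.789). Rfx5 and Nfyb, subunits of the complexes that read the X and Y boxes of class I and II promoters, were lower in every treated library than in every control (Rfx5 -0.61 ± 0.21, Nfyb -0.88 ± 0.28, edgeR adjusted p = 0.247 each). They were named after their values were seen, as were the genes without overlap in the next lists. Irf2, which can counter Irf1, was -1.09 ± 0.42 (edgeR adjusted p = 0.268), with Controls 6 and 7 at 185.1 and 207.0 CPM and Control 5 (70.5 CPM) inside the treated range of 66.7 to 75.5 CPM. The 16 regulators had a median log2 fold change of 0.11, and 0 were called by edgeR or DESeq2. Without overlap, 1 of the 16 was higher and 2 were lower, where 8.87% and 8.31% of all genes were.

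Interferon gamma signalling had 8 of 8 genes with positive log2 fold changes (median 0.44), of which 3, Socs3, Ifngr2 and Ptpn2, were higher without overlap (8.87% of all genes were), and 0 were called by edgeR or DESeq2. Socs1, an inhibitor of the pathway, was 1.67 ± 0.95 (edgeR adjusted p = 0.385) and the cytokine gene Ifng 1.38 ± 0.81 (edgeR adjusted p = 0.392). Ifng stood at 2.11, 0.254 and 0.430 CPM in the controls and 2.92, 1.42 and 3.43 CPM in the treated libraries, with Control 5 inside the treated range. The levels in Controls 6 and 7 rest on very few reads, so the size of the Ifng fold change is uncertain.

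Other class I genes gave 2 kinds of pattern. H2-Q10, a nonclassical heavy chain known for its expression in liver, stood at 8.99, 1928 and 2810 CPM in the controls and 52.2, 16.2 and 28.7 CPM in the treated libraries (-5.61 ± 1.82, edgeR adjusted p = 0.247, DESeq2 adjusted p = 0.00142). Azgp1 (-5.79 ± 1.88, edgeR adjusted p = 0.247) and Cd1d1 (-4.58 ± 1.26, edgeR adjusted p = 0.247) are 2 class I-like molecules, of which Cd1d1 presents lipids. Both were also highest in Controls 6 and 7, and DESeq2 called both (adjusted p 0.00129 and 0.0011). In these 3 genes, as in the hepatocyte markers, Controls 6 and 7 lay far above the other 4 libraries. The part of hepatocyte content in their levels was not tested. H2-Q4 stood at 344.4, 174.1 and 102.6 CPM in the controls and 322.8, 363.7 and 412.4 CPM in the treated libraries (0.82 ± 0.48, edgeR adjusted p = 0.389). Of the 9 nonclassical genes kept out of 16 listed, 8 had positive log2 fold changes, and 3, H2-T22, H2-T23 and H2-T24, were higher without overlap (8.87% of all genes were). Counted as for H2-K1, stretches shared with another gene made up 34.5% of H2-T22, most often with H2-T10 (31.25%). The share was 21.8% for H2-Q4, 19.0% for H2-Q10 and 13.6% for H2-T23. Reads from such stretches could be dropped or assigned to another gene. Opposite-strand genes overlap 29.4% of H2-T22 and 19.1% of H2-Q4 exon bases, with the strand setting of the counting not given. Of 7 class I-like genes, 6 had negative log2 fold changes, for a list median of -1.26. Among these 7 genes 1, Cd1d2, lay lower without overlap (-2.69 ± 0.80, edgeR adjusted p = 0.247), where 8.31% of all genes did.

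The class II genes, a separate pathway of antigen-presenting cells, had 7 of 8 positive log2 fold changes and a median of 0.92, but in all 8 the groups overlapped. H2-DMa stood at 55.8, 14.6 and 8.39 CPM in the controls and 42.3, 59.4 and 65.5 CPM in the treated libraries (1.08 ± 0.70, edgeR adjusted p = 0.431). H2-Eb1 stood at 500.0, 173.9 and 74.6 CPM in the controls and 353.7, 503.1 and 614.6 CPM in the treated libraries (0.97 ± 0.70, edgeR adjusted p = 0.469). Over all 69 kept genes of the pathway lists other than the members, 41 had positive and 28 negative log2 fold changes, and their median was 0.16. Without overlap, 7 were higher and 3 lower, where 8.87% and 8.31% of all genes were. Of these 69 genes edgeR called 0 and DESeq2 4, all 4 lower, where DESeq2 called 9.48% of all genes.

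**Figure D4:**
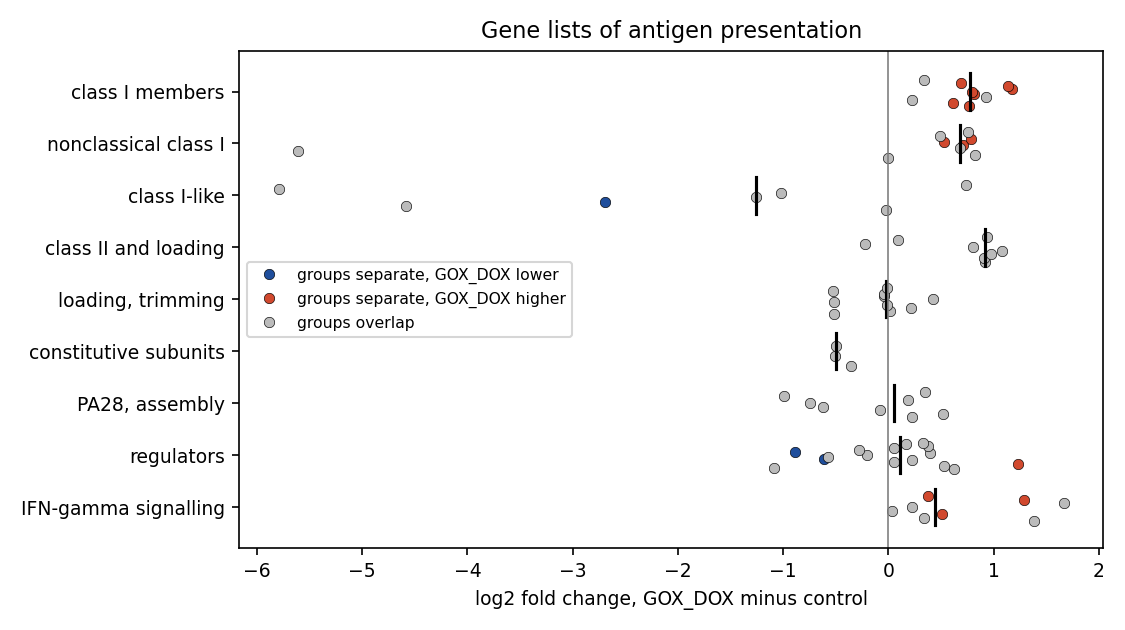
Log2 fold change (GOX_DOX minus control) of the genes of each list of antigen presentation, one point per gene and a black bar at each list's median. Red and blue points are genes whose treated libraries all lay above or all below the controls, and grey points overlap. The members lie to the right of 0, with the class II list and most nonclassical genes also at positive values, and the class I-like list reaches -5.79.

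In the leukocyte and the T and NK cell marker lists, as in the members, every treated library lay above every control in mean log2 CPM. In the macrophage, dendritic, neutrophil and B cell lists the groups overlapped, and the B cell list was highest in Controls 6 and 7 (mean log2 CPM 2.03 and 2.07, against 0.22 to 0.40 in the other 4 libraries). The summed level of 8 leukocyte markers was 745.5, 547.6 and 425.4 CPM in the controls and 789.4, 1071 and 1007 CPM in the treated libraries, and the summed level of 10 T and NK cell markers was 115.6, 69.1 and 36.8 CPM against 155.3, 155.3 and 231.7 CPM. In 7 of 8 leukocyte markers and 8 of 10 T and NK cell markers the treated libraries lay above every control, where 8.87% of all genes did. Cd3e, a T cell receptor chain and one of these, was 1.44 ± 0.36 (edgeR adjusted p = 0.247, DESeq2 adjusted p = 0.0108). Ptprc (CD45) was the leukocyte marker that overlapped, with Control 5 (116.0 CPM) above every treated library (0.52 ± 0.41, edgeR adjusted p = 0.501). The macrophage marker Adgre1 (F4/80) overlapped as well (0.71 ± 0.50, edgeR adjusted p = 0.462). DESeq2 called 3 of 10 T and NK markers as higher and all 12 hepatocyte markers as lower. It called 9.48% of all genes, 0.57% as higher. No hepatocyte, leukocyte, or T and NK cell marker was at 0 in any library. Of the other lists, macrophage markers had 2 of 10 genes higher without overlap, and neutrophil and stromal markers 0 of 4 and 0 of 8. Endothelial markers had 5 of 8 genes lower without overlap, and dendritic and B cell markers 1 of 8 and 1 of 4. Over all genes, 8.87% were higher and 8.31% lower without overlap. Markers of proliferating tumor cells had 1 of 8 higher and 1 of 8 lower without overlap. The part of these cells in the members' levels was not tested.

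**Figure D5:**
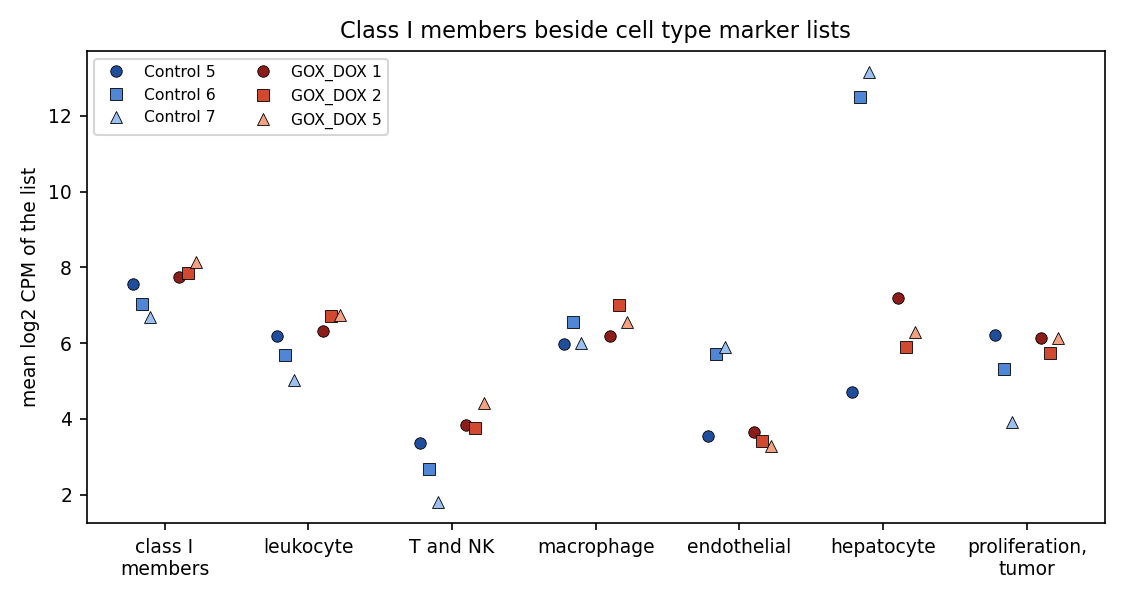
Mean log2 CPM of the members and of 6 lists of cell type markers in each library, with controls in blue and treated libraries in red. The order of the libraries in the members, lowest in Control 7 and highest in GOX_DOX 5, is close to that in the leukocyte and the T and NK lists, and the hepatocyte list is highest in Controls 6 and 7.

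Within the members, H2-K1 had the profile over the 6 libraries closest to the mean of the other members (root mean square difference of centred log2 CPM 0.072) and B2m the farthest (0.520), followed by Psmb9 (0.483). Over all genes, those most like the members' mean profile by the same measure were Abracl (0.0556), Nenf (0.0557), Cuedc2 (0.0697), Smim24 (0.0783) and Snrpf (0.0840). This likeness is over 6 libraries that share treatment and tissue makeup, and describes the profile only.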

How the data were processed

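For each of the 6 libraries the authors deposited raw, unpooled counts of 55536 genes. A deposited table of signal values held the same counts divided by one size factor per library, which the authors computed (0.5321 to 1.322 here; largest deviation from this 5.04e-08%), and it was read only for gene symbols. The study's methods name TopHat and HTSeq, the submitters' processing notes name HISAT2 2.1.0 and featureCounts 2.0.0; genome build, annotation and strand setting are not given in the sources used here. GENCODE M21 held 55450 of the gene IDs and gave coordinates and exon lengths; RefSeq promoter sequences came from GRCm38.p6.

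Counts were fitted in R 4.3.3 with edgeR 4.0.16 (filterByExpr, TMM, quasi-likelihood test over all 6 libraries, no covariates, Benjamini-Hochberg over 15374 genes, threshold 0.05). DESeq2 1.42.0, limma 3.58.1 (voom with quality weights), other scalings and filters, and leaving out libraries were alternatives. Log2 CPM used a prior count of 2. Confidence intervals cover counting error only. The edgeR, DESeq2 and voom fits were tested on simulated counts in which all libraries varied alike. Other steps were not tested in this way. Figures used Python 3.11.15 and matplotlib 3.10.9. The genes named were the members, fixed pathway genes and markers, the 2 largest changes of 5 lists, and the 5 genes most like the members, apart from those said to be named after their values were seen. The members and lists were chosen with earlier results of these data known. Results for some of the genes to be named are not reported here.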

Additional observations from a re-analysis of the deposited data

How the results depend on the processing

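The number of members called by the test changed with the method. DESeq2 called 1 of 10, limma voom with sample quality weights 9, and the fits leaving out 1 library 0 to 9, with the 9 reached without Control 5 alone. Of the 69 other pathway genes kept in the main fit, DESeq2 called 4 and voom 47, and leaving out 1 library gave 0 to 39 in this list. Of the 80 cell type markers kept, DESeq2 called 22 and voom 60, and leaving out 1 library gave 0 to 57 in that list. Over all genes DESeq2 called 9.48%, voom 60.2% and the fit without Control 5 47.7%. The other fits leaving out 1 library called 0% of all genes. The median log2 fold change of the members was 1.20 with library totals alone, where the median of all genes moved to 0.51, and it was 0.41 with Controls 6 and 7 left out, an alternative added after seeing the data. With Controls 6 and 7 left out the log2 fold change of Nlrc5 was -0.38 and the difference in H2-K1 share -1.03 points. The cause of these changes was not tested. Other scalings and filters did not change the number of members called. No paired analysis was possible because the groups share only the number 5. With 3 libraries a group, the exact permutation test cannot go below p = 0.1.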
